A study of Rattus norvegicus with 2 samples.

Results

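Newly formed oligodendrocytes were picked from 2 single-cell libraries of the rat hypothalamus by a rule on marker counts. The counts were unique molecular identifiers (UMIs), each of which stands for 1 captured mRNA molecule. A cell barcode was kept with at least 200 detected genes and at most 30% of its UMIs from mitochondrially encoded genes. A kept cell was a member when it held at least 3 of the 5 markers *Bmp4*, *Gpr17*, *Enpp6*, *Bcas1* and *Fyn*, with *Enpp6* or *Gpr17* among them. It also had to hold 0 UMIs of *Pdgfra*, at most 3 UMIs of *Mog* and *Opalin* together, and fewer than 2 of the genes *Snap25*, *Csf1r*, *Cldn5* and *Gja1*. The rule found 162 cells among 7847 kept cells and 9012 deposited barcodes, with 79 cells in Control and 83 cells in SC300. The levels of these 12 genes chose the cells and are given only as a description.

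The tissue held the anteroventral periventricular and arcuate areas of female Sprague Dawley rats at PND 29, an age of 4 weeks. SC300 rats had been implanted on the day of birth with estradiol benzoate (EB), 300 µg in a silicone capsule, according to the methods, and their library is titled EB300, whereas the design text of the series names only vehicle for these capsules. Control rats are called intact in the labels, whereas the methods give them a capsule with oil alone. Tissue of 3 rats was pooled for each group and made into 1 library, so no difference between the groups has a replicate check, no test was made, and treatment, pool and library cannot be told apart. Every interval is a 95% interval that covers counting error only.

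Oligodendrocytes arise from dividing precursors that carry the receptor for platelet-derived growth factor, encoded by *Pdgfra*. A precursor that leaves the cell cycle passes through a short premyelinating stage, in which the orphan receptor gene *Gpr17*, the secreted ligand gene *Bmp4* and the choline phosphodiesterase gene *Enpp6* are active, and then builds myelin from proteins such as that of *Mbp*. *Mog* and *Opalin* belong to the end of that path, and in the juvenile and adult brain *Enpp6* is known as a label of cells that formed recently.

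The Control members held 783231 UMIs in all, with a median of 9556 UMIs and 3125 genes per cell. The SC300 members held 987764 UMIs, with a median of 11142 UMIs and 3296 genes per cell. Depth ran from 917 to 28663 UMIs per cell in Control and from 795 to 34488 in SC300. The median mitochondrial share was 9.53% in Control and 11.1% in SC300. The libraries had 9 barcodes in common and none of these was a member. Scrublet, a caller of droplets with more than 1 cell, marked 0 Control members and 1 SC300 member.

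For comparison, precursors were gated by at least 2 UMIs each of *Pdgfra* and *Olig1*, and mature oligodendrocytes by more than 3 UMIs of *Mog* and *Opalin* without *Pdgfra*. These gates held 323 and 347 cells in Control, and 329 and 436 cells in SC300. Precursors had a median of 6491 UMIs per cell in Control and 6804 in SC300, and mature cells had 20178 and 20882.5, so members lay between them in depth. Levels are given as CPM, the UMIs of a gene per 1000000 UMIs of the group of cells in 1 library.

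*Olig1*, *Olig2* and *Sox10*, transcription factors of the oligodendrocyte lineage that the rule did not ask for, were found in most members, and *Nkx2-2*, another, in 16.5% of Control and 8.43% of SC300 members. *Olig2*, which specifies the lineage, had a UMI in 88.6% of Control and 91.6% of SC300 members. *Sox10*, which keeps lineage genes active, had one in 91.1% and 94.0%. *Olig1* had one in 86.1% and 94.0% of members, against 3.1% and 5.9% of gated microglia, which should lack it and had medians of 6605 and 7472.5 UMIs per cell. *Tcf7l2*, a transcription factor of the Wnt pathway known from premyelinating cells, was at 518 CPM in Control and 545 CPM in SC300 members. In precursors *Tcf7l2* was at 57.1 and 77.9 CPM, and in mature cells at 48.5 and 54.2 CPM. *Itpr2*, a calcium channel of the endoplasmic reticulum known from the same stage, was at 60.0 and 103.3 CPM in members, 29.03 and 48.5 CPM in precursors and 8.8 and 13.4 CPM in mature cells. Of 16 measured genes of the newly formed list that holds these 2, 10 were 2-fold or more above both precursors and mature cells in Control. Between the 2 stages lay 4. Shares of all genes above both or between were not taken, so these counts are a description. Singly, 12 of the 16 were 2-fold or more above precursors (8.79% of 8763 measured genes), 11 were 2-fold or more above mature cells (29.7%) and 3 were 2-fold or more below them (10.9%). *Neu4*, a sialidase gene used to mark committed precursors, had 0 UMIs in members, precursors and mature cells of both libraries. It also had 0 UMIs in gated microglia, endothelial cells, astrocytes and neurons, so its 0 in members carries no information on stage. In members, 0 UMIs allow a level of up to 3.83 CPM in Control and 3.04 CPM in SC300, set by 3 UMIs. Of 5 measured genes of the committed precursor list, 2 were 2-fold or more above precursors in Control (8.79% of all genes). Of the same 5, 4 were 2-fold or more above mature cells (29.7%).

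The 5 markers that chose the cells were also compared along the lineage. *Bmp4* was at 1656 CPM in Control and 800 CPM in SC300 members, against 242 and 107 CPM in precursors and 177 and 84.3 CPM in mature cells. *Enpp6* was at 982 and 1317 CPM in members, against 11.1 and 38.7 CPM in precursors and 117 and 188 CPM in mature cells. The 24 and 91 precursor UMIs of *Enpp6* came from 7 and 8 cells. *Gpr17* had few UMIs in any group, 33 and 43 in members, and was at 42.1 and 43.5 CPM in members and 19.8 and 12.8 CPM in precursors. *Bcas1*, an early marker of myelinating cells, was at 2441 and 1905 CPM in members, and the kinase gene *Fyn* at 2354 and 2044 CPM. Gated microglia had an *Enpp6* UMI in 23.3% of Control and 19.7% of SC300 cells, against 82.3% and 85.5% of members. A single *Enpp6* UMI therefore does not set a member apart from microglia, and the rule asked for further markers.

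**Figure D1:**
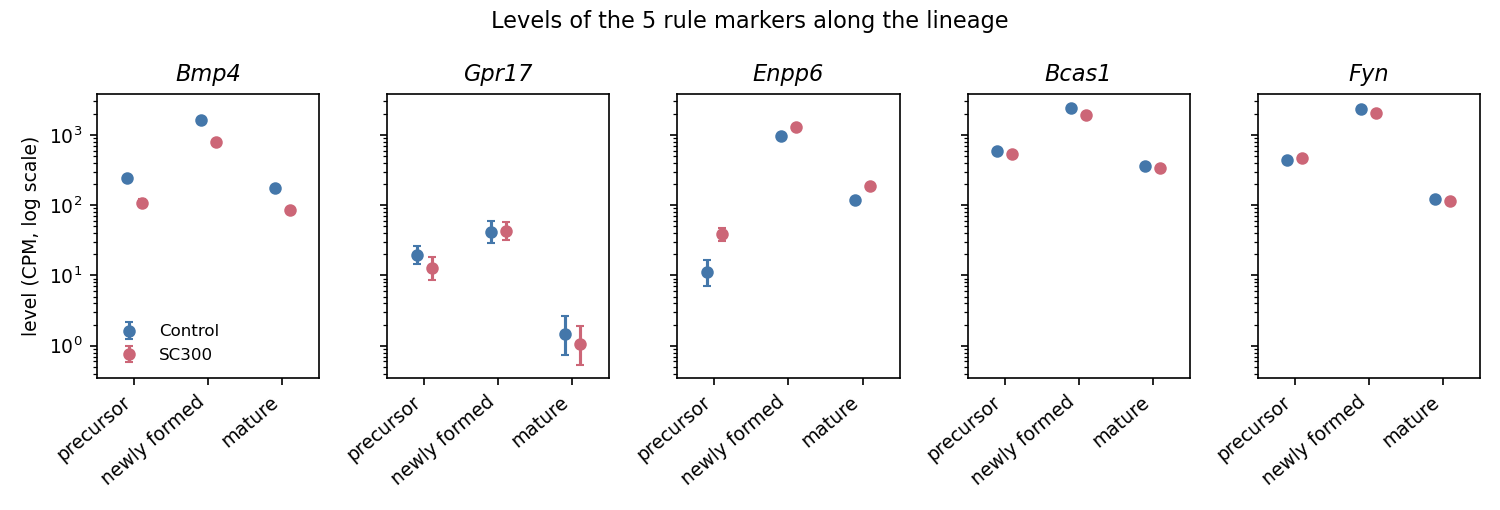
Level in CPM (log axis) of each of the 5 markers in gated precursors, newly formed cells and gated mature cells of Control (blue) and SC300 (red), with 95% counting intervals. All 5 markers peak in newly formed cells, which they were used to choose, and *Bmp4* is lower in SC300 in all 3 groups of cells, at 1656 against 800 CPM in newly formed cells.

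Values at the edges of the rule are given as a description, since most of the genes compared are its own. Of the members, 16 held 3 of the 5 markers, 114 held 4 and 32 held 5. The 16 cells with 3 markers had a median of 2634.5 UMIs, but some were deep, up to 13520 UMIs. Deep cells weigh more in a pooled level. Together the 16 cells had 124 CPM of *Bmp4*, 1378 CPM of the microglial receptor gene *Csf1r* and 386 CPM of the astrocyte gap junction gene *Gja1*. The 28 cells just outside, with 2 markers, had 0 CPM of *Bmp4*, 898 CPM of *Csf1r* and 627 CPM of *Gja1*. Members with 4 markers had 1238 CPM of *Bmp4* and 5.44 CPM each of *Csf1r* and *Gja1*. On the mature side, 37 members with 2 or 3 UMIs of *Mog* and *Opalin* had 7195 CPM of *Mbp*, and the 12 cells just outside, with 4 or 5 UMIs, had 8539 CPM. On the precursor side, 32 cells left out for a single *Pdgfra* UMI had 1512 CPM of *Bmp4* and 923 CPM of *Enpp6*, whereas 65 cells with 2 or more *Pdgfra* UMIs had 497 and 212 CPM. As a group, the 16 cells with 3 markers thus held transcripts of other cell types, mostly in few cells. Gated microglia had 2514 CPM of *Csf1r* in Control and 2687 CPM in SC300. The deepest of the 16, an SC300 cell, had 0 *Bmp4* and 2.22 UMIs each of *Enpp6*, *Bcas1* and *Fyn* per 10000. The SC300 medians of these 4 genes were 7.42, 9.45, 18.9 and 21.57. The rule may therefore have passed some cells of other types. Which members these were was not tested, and the main shares and ratios count every member. Over all members, only 1 Control and 2 SC300 cells had 5 or more *Csf1r* UMIs. For *Gja1* these numbers were 0 and 2.

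Of 1396 genes with at least 100 UMIs in Control members, 114 (8.17%) were 2-fold or more above gated precursors, gated mature cells and all kept cells that were not members at once, leaving out the genes of the rule and the gates. The last of these groups also holds the precursors and mature cells. In SC300, which did not choose these genes, 112 of the 114 were above all 3 and 103 were again 2-fold or more above. Those not above all 3 were *Pbx3* and *Gal*, with lowest folds of 0.55 and 0.005 in SC300. In Control, 3 cells held 99.5% of the *Gal* UMIs, and genes held by few cells were not left out of this comparison. Counted afresh in SC300, 123 of 1719 genes (7.16%) met the same limits. The cells were chosen by their own markers, so these counts describe them and are no test.

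The 20 genes with the highest lowest-of-3 fold in Control were all 2-fold or more above the same 3 groups in SC300 too. *AABR07028615.1*, a gene listed under its clone name, was at 244 CPM in Control members, 8.3 CPM in precursors and 11.8 CPM in mature cells, and its lowest fold was 20.6 in Control and 15.9 in SC300. *Cmtm7*, which encodes a membrane protein of the MARVEL family, was at 658 CPM in Control and 731 CPM in SC300 members, against 5.5 CPM in Control precursors and 65.2 CPM in Control mature cells. *Pdcd4*, an inhibitor of translation initiation, was at 1207 and 1215 CPM in members, against 128 and 87.4 CPM in Control precursors and mature cells. These 3 genes were as high in the library that did not pick them.

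Regulators among the 20 were *Tcf7l2*, with a lowest fold of 9.1 in Control and 7.0 in SC300, and *Mycl*, a Myc family factor at 532 and 508 CPM in members. *Mycl* was at 91.2 CPM in Control precursors and 9.6 CPM in Control mature cells. Genes of the cytoskeleton and of transport along it included *Dynll2*, a dynein light chain gene at 2399 and 2022 CPM in members against 357 CPM in Control precursors, and *Sept5*, a septin gene at 323 and 277 CPM. The actin capping gene *Capg* was at 216 CPM in Control and 97.2 CPM in SC300 members, and its lowest fold was 6.2 and 3.5. Membrane and endosome genes were *Mpzl1*, a relative of myelin protein zero at 1433 and 1400 CPM, *Slc15a4*, a lysosomal transporter at 369 and 389 CPM, *Plxnb3*, a semaphorin receptor with a lowest fold of 5.8 and 5.6, and the sorting nexin gene *Snx18* with 5.4 and 5.1. Pnlip, which encodes a lipase best known from the pancreas, was at 1744 and 1945 CPM in members, 66.8 CPM in Control precursors and 291 CPM in Control mature cells. The rest of the 20 were *Lhfpl2*, *Epb41l2*, *Zfp365*, *Snrpd1*, *Peli1*, *Zfp579* and *Atp6v0a2*, with lowest folds in Control from 5.4 to 6.6.

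**Figure D2:**
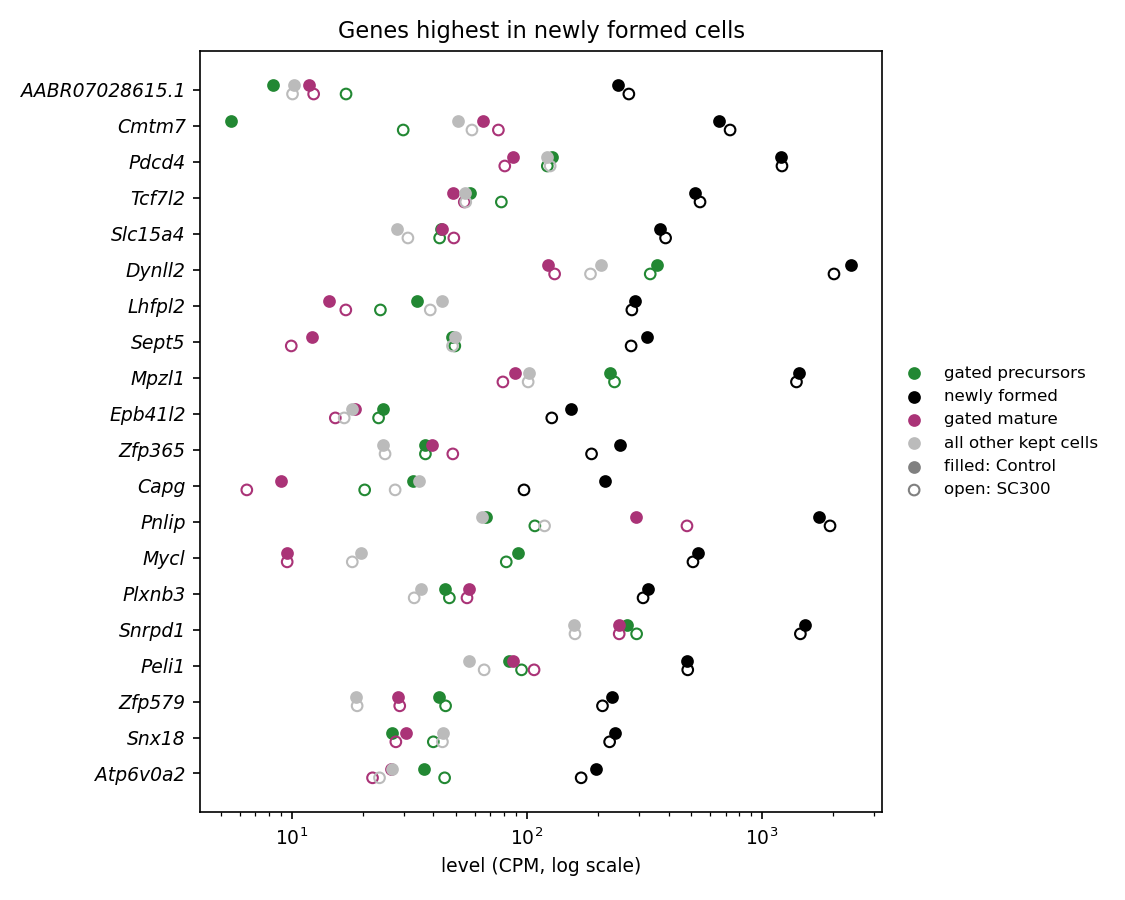
Level in CPM (log axis) of the 20 genes with the highest lowest-of-3 fold in Control newly formed cells (black), with gated precursors (green), gated mature cells (purple) and all kept cells that were not members (grey), Control as filled and SC300 as open circles. In both libraries each gene is highest in newly formed cells, with the lowest fold in Control running from 20.6 for *AABR07028615.1* to 5.4 for *Atp6v0a2*.

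Myelin genes were partly on in members. Of 15 early myelin genes, 13 were 2-fold or more above precursors in Control, where 8.79% of 8763 genes were, and 9 were 2-fold or more below mature cells, where 10.9% were. *Mbp* was at 4572 and 4392 CPM in Control and SC300 members, 266 and 393 CPM in precursors, and 10438 and 10058 CPM in mature cells. Late genes were low, since all 16 genes of the late list, which includes *Mal*, *Ermn* and *Klk6*, were 2-fold or more below mature cells in Control, while 7 of the 16 were 2-fold or more above precursors and 3 were as far below, where 21.5% of all genes were. The early list summed to 42215 CPM in Control members and 104670 CPM in Control mature cells, and the late list to 2806 and 40784 CPM.

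Precursor genes were partly off. In Control, 9 of 12 measured genes of the precursor list were 2-fold or more below precursors, where 21.5% of genes were, and 11 of the 12 were 2-fold or more above mature cells, where 29.7% of genes were. The other way went 1 of the 12, *Tnr*, 2-fold or more above precursors (8.79% of genes). *Tnr* was at 527 and 500 CPM in Control and SC300 members and at 156 and 150 CPM in precursors. *Ptprz1*, a receptor phosphatase of precursors, was at 146 and 118 CPM in members and at 1765 and 1649 CPM in precursors. *C1ql1*, a secreted protein gene of precursors, was at 1037 and 1118 CPM in members, 2491 and 2144 CPM in precursors and 10.9 and 12.7 CPM in mature cells. Of 15 measured cell cycle genes, 11 were 2-fold or more below precursors in Control (21.5% of all genes). Of the 15, 9 were 2-fold or more above mature cells (29.7%) and 10 lay between the 2 stages. The share of all genes between the stages was not taken, so the last count is a description. The proliferation genes *Mki67*, *Top2a* and *Cdk1* had 0 UMIs in members of both libraries, which allows up to 3.83 CPM in Control and 3.04 CPM in SC300. Their levels in precursors are not given here, so these 0 counts are a description. Immediate-early genes, which respond to activity and to tissue dissociation, summed to 3239 and 2712 CPM in members against 8057 and 7447 CPM in precursors. *Fos*, one of them, was at 444 and 363 CPM in members and 2669 and 2274 CPM in precursors.

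Of 19 measured cholesterol genes, 18 lay between precursors and mature cells in Control. The share of all genes between the 2 stages was not taken, so this count is a description. Of the 19, 11 were 2-fold or more above precursors (8.79% of all genes) and 8 were 2-fold or more below mature cells (10.9%). Fatty acid and sphingolipid genes went both ways against precursors, with 4 of 12 measured genes 2-fold or more above them and 3 of the 12 as far below (21.5% of all genes), around a median log2 ratio of -0.08. Of the 12, 9 were 2-fold or more below mature cells. *Fdps*, an enzyme of the isoprenoid path to cholesterol, was at 621 and 583 CPM in members, 234 and 231 CPM in precursors and 1219 and 1230 CPM in mature cells. *Tuba1a*, an alpha-tubulin of growing processes, went the other way and was higher in members than on either side, at 12649 and 11703 CPM against 3875 and 3921 CPM in precursors and 3675 and 3947 CPM in mature cells.

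Members differed among themselves by which of *Gpr17* and *Enpp6* they held. In Control, 14 cells (17.7%) had *Gpr17* and no *Enpp6* UMI, 10 cells (12.7%) had both, and 55 cells (69.6%) had *Enpp6* and no *Gpr17* UMI. In SC300 the numbers were 12 (14.5%), 22 (26.5%) and 49 (59.0%). The interval of the share with both was 6.24% to 22.05% in Control and 17.4% to 37.3% in SC300. A missing UMI of a gene with as few UMIs as *Gpr17* depends on depth. After members were thinned to 2000 UMIs, with 6 Control and 2 SC300 members left out as too shallow, 51 Control and 65 SC300 cells still held either gene, and the share of these with both was 0 in Control, which allows up to 5.88%, and 7.69% in SC300.

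Over both libraries, the 26 cells with *Gpr17* and no *Enpp6* had a median of 10420 UMIs, the 32 cells with both had 11851.5 and the 104 cells with *Enpp6* and no *Gpr17* had 9787.5. The groups were cut by *Gpr17* and *Enpp6*, so the other genes are described without a test. *Mbp* was at 249 CPM in cells with *Gpr17* alone, 3259 CPM in cells with both and 5972 CPM in cells with *Enpp6* alone. *Mag*, which encodes an adhesion protein of the inner myelin layer, was at 26.04, 679 and 1176 CPM in the same order, and the tight junction gene *Cldn11* at 78.1, 1175 and 2163 CPM. The 3 myelin genes thus stepped up with *Enpp6*, and *Cnp*, an enzyme gene of early myelin, was already at 7039 CPM in cells with *Gpr17* alone and at 9187 CPM in cells with *Enpp6* alone. *Chn2*, a regulator of Rac from the newly formed list, was at 96.7, 935 and 900 CPM, and *Tcf7l2* at 190, 567 and 605 CPM. The libraries went apart from both to *Enpp6* alone, since *Tcf7l2* went from 385 to 655 CPM in Control and from 651 to 560 CPM in SC300, and *Chn2* from 931 to 994 CPM and from 937 to 818 CPM. Cholesterol genes summed to 1019, 2823 and 4485 CPM, the first of which lies below the 1751 and 1744 CPM of Control and SC300 precursors. Other genes were lowest with *Enpp6* alone. The precursor gene *C1ql1* was at 2210, 1263 and 735 CPM and stepped down in each library. *Olig2* was at 1442, 1523 and 861 CPM in Control and at 1429, 1228 and 750.3 CPM in SC300, so the first step went up in Control and down in SC300. *Cd9*, a tetraspanin gene of the early myelin list, was at 17461, 12226 and 8115 CPM, all above its 4421 and 3855 CPM in Control and SC300 precursors. *Apod*, a lipid carrier gene placed on the late list, was at 4413, 2169 and 1304 CPM, so that its late list was highest in the cells with *Gpr17* alone.

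**Figure D3:**
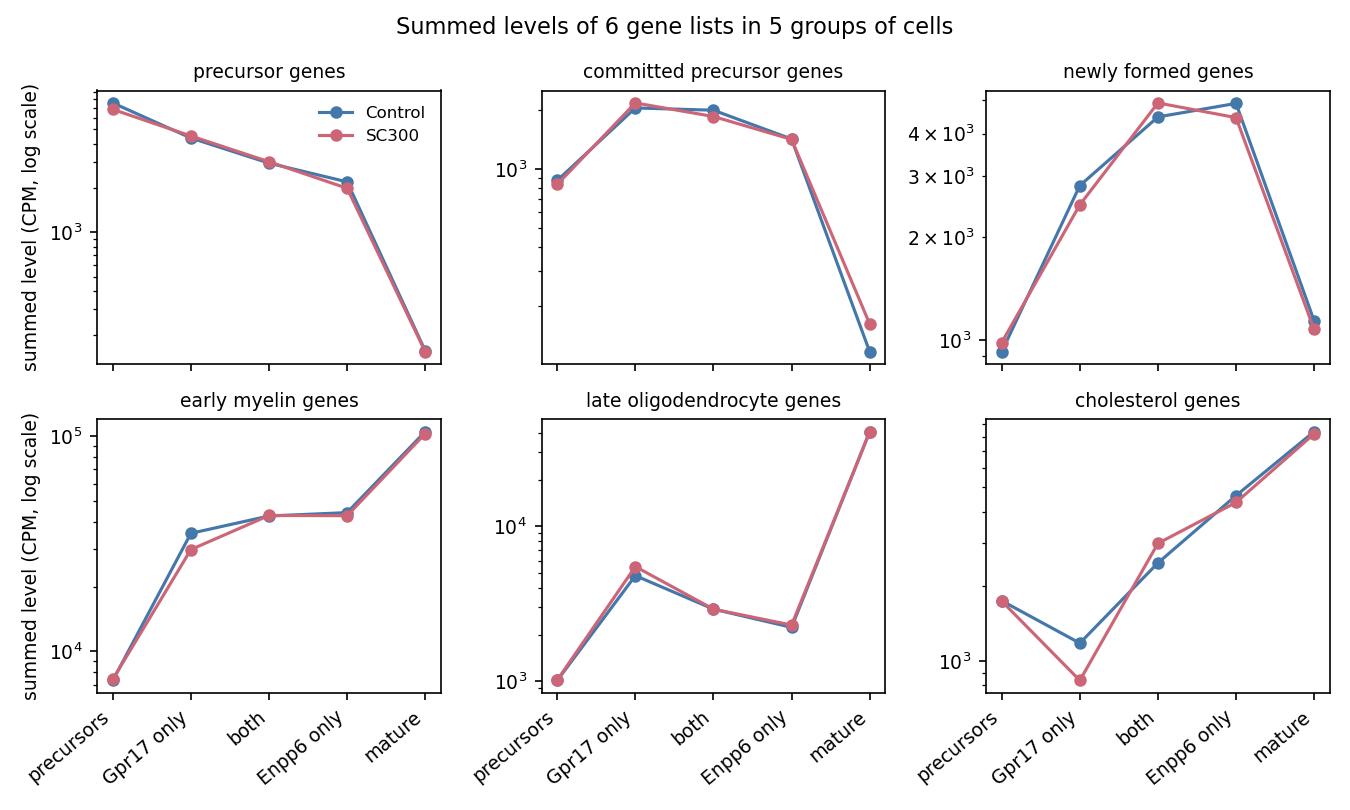
Summed level in CPM (log axis) of 6 gene lists in gated precursors, in newly formed cells with *Gpr17* alone, both genes or *Enpp6* alone, and in gated mature cells, for Control (blue) and SC300 (red). In both libraries precursor genes are lower in each later group, while newly formed genes go from both to *Enpp6* alone upward in Control and downward in SC300, with cholesterol genes at 1019 CPM in cells with *Gpr17* alone and 4485 CPM in cells with *Enpp6* alone over both libraries.

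Between cells with *Enpp6* alone and cells with *Gpr17* alone, 201 of 2320 measured genes (8.66%) were 2-fold or more higher in the first and 98 (4.22%) in the second. Genes highest with *Enpp6* alone on the log2 scale were *Mag* (5.50), the adhesion gene *Igsf11* (5.31), the planar polarity gene *Prickle1* (5.22), *Pbx3* (4.92), *Cldn11* (4.79) and the growth arrest gene *Gadd45a* (4.78). *Igsf11* and *Prickle1* had 1 UMI each in the cells with *Gpr17* alone, so their sizes are uncertain. For *Pbx3* the Control cells gave 1 UMI with *Gpr17* alone and 110 with *Enpp6* alone, and the SC300 cells 0 and 13. *Gal*, *C1qc*, *Tmem176a* and *Csf1r* also ranked among the first 10, but 3 cells held 82.8% to 99.5% of their UMIs. Genes highest with *Gpr17* alone were *C1qtnf5* (-2.92), the matrix protein gene *Mgp* (-2.57), the caveolin gene *Cav2* (-2.48), *Ddah2* (-2.36), the small heat shock gene *Cryab* (-2.30), the intermediate filament gene *Ina* (-2.21), *Vxn* (-2.12), *Rgcc* (-2.08), *Ramp1* (-2.05) and *Phyh* (-1.99). *C1qtnf5* was at 506 CPM with *Gpr17* alone, 67.0 CPM with *Enpp6* alone, 376 CPM in precursors and 3.3 CPM in mature cells over both libraries.

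The share of newly formed cells was alike in both libraries within counting error. Members were 2.01% of kept cells in Control (exact Clopper-Pearson interval 1.595% to 2.5003%) and 2.12% in SC300 (1.69% to 2.62%). The ratio SC300 over Control was 1.05, a log2 ratio of 0.07 (-0.39 to 0.54), so a difference smaller than about this interval was not detectable at this depth. Among precursors, newly formed and mature cells together, members were 10.5% of 749 cells in Control and 9.79% of 848 cells in SC300. Beside them, precursors were 8.22% and 8.40% of kept cells, and mature cells 8.83% and 11.1%, a log2 ratio of 0.33 (0.13 to 0.54).

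Gene levels in members were compared as the log2 ratio of CPM, SC300 over Control, for 4571 genes with at least 50 UMIs in both libraries together. Of these, 53 (1.16%) were 2-fold or more higher in SC300 and 33 (0.722%) were 2-fold or more lower, and the median log2 ratio was -0.02. The balance turned at a mitochondrial limit of 10%, with 22 higher and 52 lower of 2834 genes. Leaving out the 40 members with any UMI of *Snap25*, *Csf1r*, *Cldn5* or *Gja1* gave 16 higher and 16 lower of 3699 genes. That comparison was added after the data were seen.

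Some of the 53 higher genes belonged to other cell types and sat in few cells. Of those with at least 100 UMIs, all but *Ptn* had 50% or more of their SC300 UMIs in 3 cells. Of 5 measured astrocyte genes, 4 were 2-fold or more higher in SC300, and the list of 9 summed to 283 CPM in Control and 848 CPM in SC300, with *Aldoc* as its most abundant gene. Without the 40 members the list summed to 254 and 264 CPM. Of 6 measured microglial genes, 3 were 2-fold or more higher, and the list of 10 summed to 522 and 737 CPM with *C1qa* as its most abundant gene, but to 62.7 and 53.6 CPM without those members. Macrophage genes, with *Mrc1* the most abundant, summed to 3.83 and 116 CPM, and to 0 in both libraries without them. Neuronal genes summed to 89.4 and 149 CPM, and the neuropeptide genes *Gal*, at 557 UMIs in Control and 1 in SC300, and *Oxt*, at 10 and 757 UMIs, had 99.5% and 95.5% of their UMIs in 3 cells. Endothelial genes summed to 17.9 and 17.2 CPM. Of the 4 genes of other cell types that the rule limits, *Snap25* had 13 UMIs in Control and 36 in SC300 members, *Csf1r* 28 and 79, *Cldn5* 1 and 3, and *Gja1* 8 and 60. For this reason 50 genes with 50% or more of their UMIs in 3 cells of the higher library were left out of the genes named next, and 16 of these 50 were 2-fold or more apart, *Gal* and *Egr1* lower in SC300 and the others higher, up to *Oxt*.

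*Bmp4* had the largest ratio among the 5 markers of the rule. It had 1297 UMIs in Control and 790 in SC300 members, 1656 against 800 CPM, a log2 ratio of -1.05 (-1.18 to -0.92). The median cell held 13.99 *Bmp4* UMIs per 10000 in Control, with quartiles of 7.81 and 22.24, and 7.42 in SC300, with quartiles of 3.97 and 12.12. The cells of both libraries overlapped, and the highest had 53.74 in Control and 25.19 in SC300. The same log2 ratio was -1.18 (-1.40 to -0.96) in precursors, -1.07 (-1.20 to -0.95) in mature cells and -0.995 in all kept cells that were not members, each within the interval of the members. The last group also holds the precursors and mature cells. Outside the lineage *Bmp4* was low, at 5.80 CPM in Control and 6.59 in SC300 astrocytes and 1.13 and 1.35 in microglia. In endothelial cells it was at 9.03 and 5.21 CPM, and in neurons at 12.8 and 5.54 CPM. Without the 40 members the log2 ratio of *Bmp4* in members was -1.01.

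*Enpp6* differed in the other direction. It had 769 UMIs in Control and 1301 in SC300 members, 982 against 1317 CPM, a log2 ratio of 0.42 (0.29 to 0.55). Its median was 9.10 UMIs per 10000 in Control and 9.45 in SC300, its lower quartile 1.98 and 3.51, and its upper quartile 16.45 and 20.98, so both quartiles differed by more than the median. In mature cells the log2 ratio was 0.68 (0.57 to 0.80). *Enpp6* UMIs outnumbered *Bmp4* UMIs in 21 of 79 Control members (26.6%, 17.3% to 37.7%) and in 43 of 83 SC300 members (51.8%, 40.6% to 62.9%). Of the other markers, *Bcas1* had a log2 ratio of -0.36 (-0.45 to -0.26), *Fyn* -0.20 (-0.30 to -0.11) and *Gpr17* 0.05 (-0.64 to 0.75). The rule selected on all 5, so these ratios are a description.

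**Figure D4:**
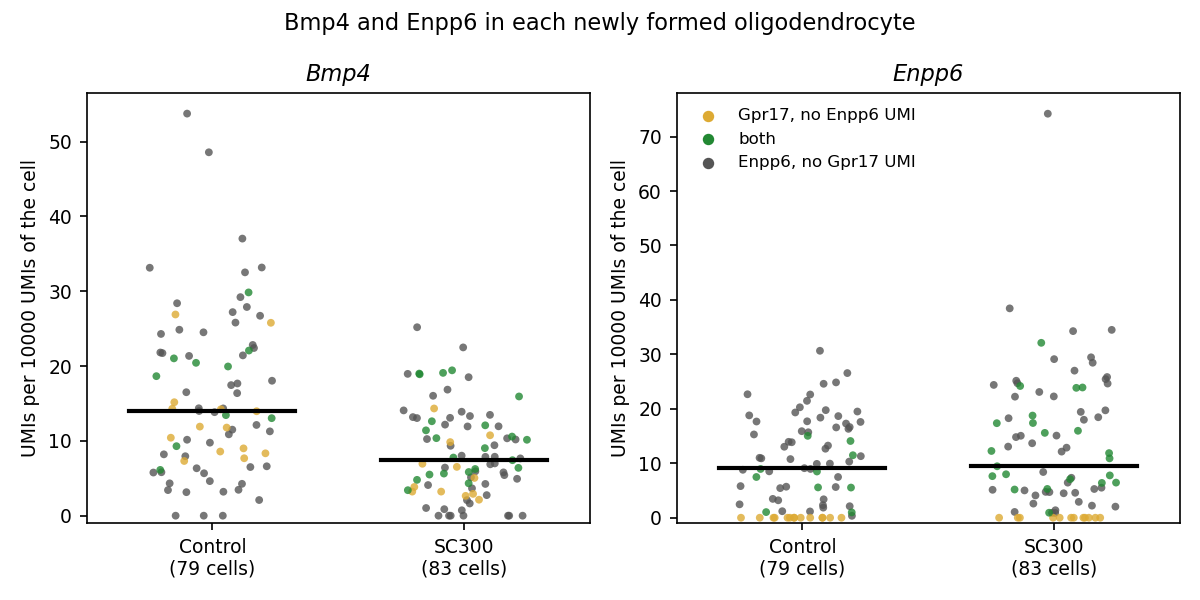
UMIs of *Bmp4* (left) and *Enpp6* (right) per 10000 UMIs of each newly formed cell in Control (79 cells) and SC300 (83 cells), coloured by the detection of *Gpr17* and *Enpp6*, with the median as a black line. The *Bmp4* median is 13.99 in Control and 7.42 in SC300, while the *Enpp6* medians are 9.10 and 9.45 and more SC300 cells lie high.

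The 250 bases before the annotated start of *Bmp4* and of *Enpp6* are shown because these markers differed in opposite directions. They are RefSeq sequences of build GRCr8, each read 5′ to 3′ on the minus strand of its chromosome, for *Bmp4* at chr15:22101934-22102183 and for *Enpp6* at chr16:52026729-52026978. Capitals mark matches on either strand to CAGCTG, an E-box that OLIG and other helix-loop-helix factors can bind, or to ACAAAG, a core shared by SOX and TCF factors.
Bmp4: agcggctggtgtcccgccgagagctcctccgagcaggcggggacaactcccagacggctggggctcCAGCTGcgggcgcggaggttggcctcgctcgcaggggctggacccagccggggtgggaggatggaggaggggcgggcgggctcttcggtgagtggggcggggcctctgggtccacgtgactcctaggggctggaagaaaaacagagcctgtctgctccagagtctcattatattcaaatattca
Enpp6: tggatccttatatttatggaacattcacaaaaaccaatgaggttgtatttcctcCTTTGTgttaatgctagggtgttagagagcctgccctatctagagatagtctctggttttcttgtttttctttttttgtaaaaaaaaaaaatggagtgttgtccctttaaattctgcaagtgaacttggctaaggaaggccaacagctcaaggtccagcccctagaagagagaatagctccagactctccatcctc
The *Bmp4* window held 1 CAGCTG, which begins 184 bases before the start, and the *Enpp6* window held 1 ACAAAG, read as CTTTGT on this strand, 196 bases before it. Of 33469 such windows in the table, 12.0% held CAGCTG and 16.3% held ACAAAG, so each match is common. The palindrome of the oestrogen response element was in 8 of all windows and in neither of these. Of the 20 genes named above as highest in members, 16 had a window, and 1 of these, *Plxnb3*, held ACAAAG.

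Of 2856 genes with at least 100 UMIs, without mitochondrial genes, the 50 carried by a few cells were set aside, and the 10 lowest ratios were led by *Pbx3*. This homeodomain factor had 128 UMIs in 40 Control members and 15 UMIs in 14 SC300 members, 163 against 15.2 CPM, a log2 ratio of -3.43 (-4.31 to -2.65). In precursors, with 9 and 14 UMIs, the log2 ratio of *Pbx3* was 0.52 (-0.79 to 1.91), and in mature cells its log2 ratio was -0.38. The *Pbx3* difference was thus found in the members and not at that size on either side, and without the 40 members it was -3.40, from 103 and 12 UMIs.

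*Ccng1*, a cyclin gene known as a target of p53, had 73 UMIs in 40 Control members and 29 UMIs in 23 SC300 members, a log2 ratio of -1.67 (-2.34 to -1.03). It was also lower in the groups compared here, with log2 ratios of -1.12 in precursors and -1.56 in mature cells. In all kept cells that were not members, which include these precursors and mature cells, it was -1.09. The log2 ratio of *Capg* was -1.15 (-1.53 to -0.78), from 169 and 96 UMIs. *Hdhd2*, a gene of the haloacid dehalogenase family, had 83 and 48 UMIs, which put its log2 ratio at -1.12, with -0.64 in precursors and -0.75 in mature cells. *Limd1*, a LIM domain adaptor of Hippo signalling, was at 266 against 137 CPM, with a ratio of -0.96 (-1.28 to -0.64) on the log2 scale. *Tnrc6a*, part of the microRNA silencing complex, was at -0.84, and *Srebf2*, the transcription factor of sterol synthesis, at -0.82 with -0.57 in precursors and -0.72 in mature cells. The remaining genes of the lower 10 were *Bmp4* and the haemoglobin genes *LOC103694857* and *Hba-a2*.

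Haemoglobin RNA marks red blood cells and occurs free in dissociated tissue. *LOC103694857* had 258 UMIs in Control and 89 in SC300 members, a log2 ratio of -1.87, and *Hba-a2* had 102 and 36, a log2 ratio of -1.84. The list summed to 566 CPM in Control and 152 CPM in SC300 members, 793 and 198 CPM in precursors, and 680 and 1220 CPM in mature cells. Reads of near-identical haemoglobin copies cannot be assigned with certainty. The part of free RNA in the other differences was not tested.

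Among the 10 highest ratios of the same genes, the first was that of *Ptn*, which encodes the growth factor pleiotrophin. Of the 10 genes, *Ptn* alone was 2-fold or more higher. It had 82 UMIs in Control and 236 in SC300 members, 105 against 239 CPM, a log2 ratio of 1.19 (0.82 to 1.57). Its log2 ratio was -0.02 in precursors and -0.21 in mature cells. *Pcp4*, a calmodulin regulator, was at 0.99, the kinase gene *Camk2g* at 0.96, and *Ptgds*, a prostaglandin D synthase of mature oligodendrocytes and meninges, at 0.95. The next were *LOC103689968* at 0.91, the creatine synthesis gene *Gatm* at 0.88, *Sat1*, an enzyme of polyamine breakdown, at 0.84, the septin gene *Sept4* at 0.84, the progranulin gene *Grn* at 0.82 and the kinase gene *Rps6ka5* at 0.82. Without the 40 members *Camk2g* was at 0.21 and *Ptn* at 1.10. With every cell weighted alike *Ptn* was at 0.47, below its interval, and *Sept4* at -0.0815. With a mitochondrial limit of 10% *Ptn* was at 0.05 from 36 and 24 UMIs, *Pcp4* at -0.19 and *Sept4* at 2.29.

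**Figure D5:**
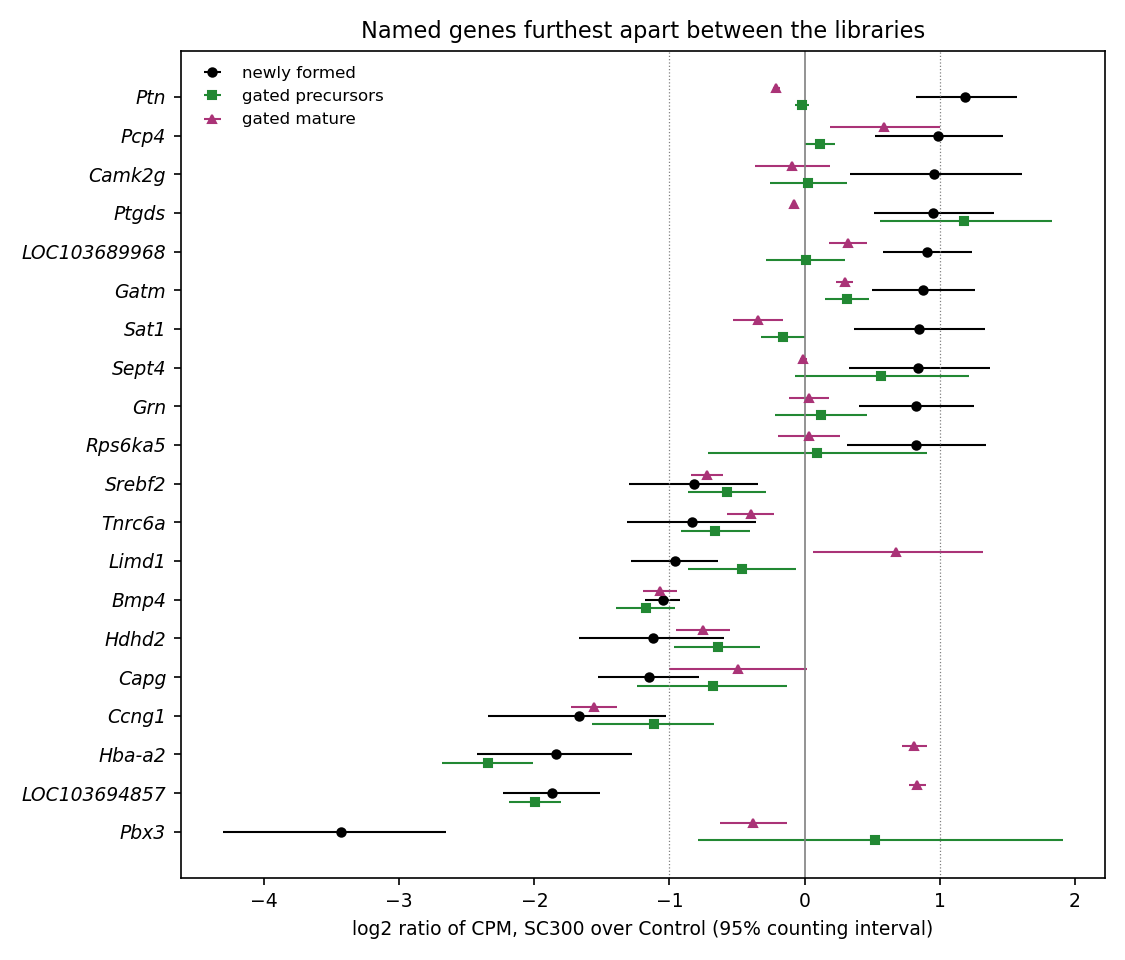
Log2 ratio of CPM, SC300 over Control, with 95% counting intervals for the 20 named genes in newly formed cells (black circles), gated precursors (green squares) and gated mature cells (purple triangles), with dotted lines at 2-fold. *Bmp4* and *Ccng1* are lower in all 3 groups of cells, whereas *Pbx3* is at -3.43 in newly formed cells and 0.52 in precursors.

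Gene lists that describe the stage itself were close between the libraries, beside a median log2 ratio of -0.02 over all measured genes. The newly formed list had 13 measured genes and a median of -0.03, with 1 gene 2-fold or more lower, *Ust*, a sulfotransferase gene at -1.14 from 35 and 20 UMIs. Committed precursor genes had a median of -0.07, precursor genes -0.25, early myelin genes 0.05, late genes -0.02, lineage transcription factors -0.05, cholesterol genes -0.07 and cytoskeleton genes -0.11, with no measured gene of these lists 2-fold or more apart. Over all genes few were, 1.16% higher and 0.722% lower, so this count says little about the lists. Fatty acid and sphingolipid genes had a median of 0.12. Medians this near 0 carry no direction, as that of early myelin genes was -0.17 with every cell weighted alike and 0.26 with a mitochondrial limit of 10%. Sums were close too, at 42215 and 40999 CPM for early myelin genes and 3653 and 3508 CPM for cholesterol genes.

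Signalling lists held few measured genes. Of the BMP pathway, 1 gene was measured, *Smad7*, an inhibitor of the pathway, at a log2 ratio of -0.67 (-1.13 to -0.22) from 96 and 76 UMIs. Of Wnt genes, 2 were measured, *Tcf7l2* at 0.07 and *Apc*, part of the complex that degrades beta-catenin, at 0.28. Among 8 growth factor and transmitter receptors, the median was 0.14, and *Ntrk2*, the receptor of brain-derived neurotrophic factor, was at 0.90 from 36 and 85 UMIs, with 63.5% of the SC300 UMIs in 3 cells. Of 17 adhesion and guidance genes, 1 was 2-fold or more apart, *Adgrg1*, an adhesion receptor of precursors and other glia, at 1.69 from 14 and 57 UMIs. With 1.16% higher and 0.722% lower over all genes, 1 gene says nothing particular about the list.

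Oestrogen and progesterone receptor genes were not found in members. *Esr1*, *Esr2*, *Gper1* and *Pgr* had 0 UMIs in both libraries, which allows up to 3.83 CPM in Control and 3.04 CPM in SC300. In gated neurons of the same libraries, *Esr1* had 58 and 29 UMIs, or 8.87 and 4.23 CPM. These neuronal levels are above the limits for members, by little in SC300. The other 3 genes were low in neurons too, with 1 and 2 UMIs of *Esr2*, 0 of *Gper1* and 8 and 20 of *Pgr*, at most 2.92 CPM and under the limits for members, so 0 UMIs in members carry no information on them at this depth. The thyroid hormone receptor gene *Thra* had 179 and 224 UMIs in members, a log2 ratio of -0.01, and *Pgrmc1*, a membrane protein once named for progesterone binding, 151 and 236 UMIs and 0.31 (0.01 to 0.61).

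Stress and immune lists held single genes 2-fold or more apart, beside 1.16% higher and 0.722% lower over all genes, and these counts describe the genes rather than the lists. Immediate-early genes had a median of -0.19 over 15 measured genes, or -0.93 over 8 with a mitochondrial limit of 10%, with *Egr1* the one gene 2-fold or more lower, of which 3 cells held 73.3% of the UMIs in Control and 79.2% in SC300. Endoplasmic reticulum and translation stress genes also had a median of -0.19, and *Hspa5*, the main chaperone of the endoplasmic reticulum, was at -0.42 (-0.55 to -0.28) from 882 and 834 UMIs. Of 7 measured cell death genes the median was -0.05. The interferon-induced gene *Ifi27* had 64 UMIs in Control and 17 in SC300 members, a log2 ratio of -2.25, and was lower by more in precursors (-4.08) and mature cells (-3.91). Of 3 measured MHC class I genes the median was 0.59 and *RT1-CE10* was 2-fold or more higher at 1.11, with 88.9% of its Control and 87.8% of its SC300 UMIs in 3 cells, and reads of related RT1 genes may be split. Of iron genes, *Aco1*, which senses iron, was at -1.07 from 35 and 21 UMIs. Cell cycle genes had a median of -0.26 and clock genes 0.25.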

How the data were processed

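Single-cell RNA of 2 libraries was measured with 10x 3′ chemistry, and each library pooled 3 rats. The authors called cells and deposited counts of UMIs per gene and barcode without normalization, made with Cell Ranger (3.0.1 in the submitters' processing notes) on the Ensembl 96 rat transcriptome, with 32883 genes listed. The deposited counts summed to 52004789 UMIs in Control and 57013099 in SC300.

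Members and gates were found from the counts by the stated limits, and UMIs were summed per library and scaled to CPM. Ratios carry exact conditional binomial intervals, levels Poisson intervals and shares Clopper-Pearson intervals, and a count of 0 was set to 3 UMIs. Genes with at least 50 UMIs were measured and 2-fold stood for a call. Members, lists and limits were chosen with earlier results of these data known. Genes named between the libraries were the 10 highest and 10 lowest ratios at 100 UMIs or more, without mitochondrial genes and genes with 50% or more of their UMIs in 3 cells. The other named genes were the rule markers, the 20 highest against the other groups, the 10 furthest apart in each direction between the *Gpr17* and *Enpp6* groups, the leading genes of each list and those 2-fold apart, and the receptors for oestrogen and progesterone. Other genes named from a list were chosen after their values were seen. Doublets were called with Scrublet in scanpy 1.11.5 and kept. The calculations used Python 3.11.15, numpy 2.4.6, pandas 2.3.3 and scipy 1.17.1 and were tested on simulated data. Values of a few genes are not reported here. Alternatives changed the mitochondrial limit, doublets, marker number, *Mog* and *Opalin* limit, scaling, weighting of cells and minimum UMIs. Those with *Enpp6* members alone, and without members holding *Snap25*, *Csf1r*, *Cldn5* or *Gja1*, were chosen after seeing the data.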

Additional observations from a re-analysis of the deposited data

Results flagged for a closer look

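The SC300 over Control log2 ratio of 6 named genes pointed the other way in an older or younger stage of the same lineage, with neither counting interval reaching 0. These differences between stages were not tested. *Ptn* was at 1.19 in newly formed cells and -0.21 in mature cells, and *Ptgds* at 0.95 and -0.08, with 1.18 (0.56 to 1.83) in precursors, the direction of the members. *Sat1* was at 0.84 in newly formed cells, -0.16 in precursors and -0.34 in mature cells. The haemoglobin genes *LOC103694857* (-1.87) and *Hba-a2* (-1.84) were at 0.83 and 0.81 in mature cells and at -1.99 and -2.34 in precursors. *Limd1* was at -0.96 in newly formed cells and 0.68 in mature cells, from 33 and 72 mature UMIs, with -0.46 in precursors.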

How the results depend on the processing

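Every value rests on 1 library per group and 79 and 83 cells, so counting error alone was measured, and the genes 2-fold apart depend on the cells and the UMI limit. At a mitochondrial limit of 10%, with 46 and 28 members, 22 of 2834 genes were higher and 52 lower in SC300. With *Enpp6* members alone 34 of 3335 were higher and 27 lower, a smaller number of genes being measured, and without members holding *Snap25*, *Csf1r*, *Cldn5* or *Gja1* 16 of 3699 were higher and 16 lower. At least 100 UMIs gave 15 higher and 9 lower of 2867, and at least 20 UMIs 232 and 115 of 6994. The microglial median turned to -1.95 and *Pcp4* to -0.19 at the 10% limit, where *Ptn* fell to 0.05, and *Sept4* turned to -0.0815 with every cell weighted alike, where *Ptn* was at 0.47. The early myelin median, at 0.05, was -0.17 with every cell weighted alike and -0.0721 with *Enpp6* members alone, and other list medians near 0 changed sign too. The cause was not tested. *Bmp4* ran no closer to 0 than -0.88, with *Mog* and *Opalin* at most 1. Thinned to 2000 UMIs, Control shares of *Gpr17* alone, both and *Enpp6* alone were 7.84%, 0% and 92.2%, and SC300 shares were 10.8%, 7.69% and 81.5%, since fewer UMIs per cell give fewer detections. The log2 ratio of the share of cells ran from -0.27 to 0.14. Of the named genes, 177 values under the alternatives other than those added after seeing the data lay within the counting interval, 13 lay outside it in the same direction and 2 turned. No paired analysis was possible because each group has 1 library and no test was made.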

Other observations

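*Cox4i2*, a subunit gene of cytochrome c oxidase, was chosen after its values were seen and lay below the 100 UMIs set for named genes. It had 9 UMIs in 8 Control members and 68 UMIs in 25 SC300 members, a log2 ratio of 2.58 (1.57 to 3.77). Precursors held 30 and 149 *Cox4i2* UMIs, a log2 ratio of 2.20, and mature cells 7 and 60, a log2 ratio of 2.65. In all kept cells that were not members the *Cox4i2* log2 ratio was 0.45.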
